A study of Mus musculus with 6 samples.

Results

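The 43 genes described here encode lysosomal proteins, the autophagy machinery and the transcription factors that act on both, and they were chosen by name from pathway knowledge with earlier results of these data known. All 43 were found among the 27179 gene numbers of the count table. RNA for 6 libraries came from cultured spleen cells of gBT-I mice, whose CD8+ T cells carry a transgenic T cell receptor for the gB498-505 peptide of herpes simplex virus glycoprotein B. In both groups the cells were activated with that peptide and LPS, received IL-2 from day 2 to day 5 and were harvested on day 6. The 3 butyrate libraries came from cultures that also had butyrate from day 3, and the 3 control libraries from cultures for which the labels name no butyrate. Butyrate is a short-chain fatty acid of gut bacteria and an inhibitor of histone deacetylases. Its dose, the age and number of the mice and any sort for CD8+ T cells are details that the sources used here do not give, and the labels do not tie replicates to separate mice or cultures, so p-values measure the spread between these libraries, which may be technical.

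Lysosomes are acidic compartments in which hydrolases degrade proteins, lipids and glycans, and the proton pump V-ATPase acidifies them. In autophagy a double membrane forms around cytoplasmic cargo, is coated with lipid-linked LC3 and GABARAP proteins and then fuses with the lysosome. TFEB, TFE3 and MITF bind E-box sequences in the promoters of many genes of both systems, and the kinase complex mTORC1 on the lysosome surface holds TFEB and TFE3 in the cytoplasm when nutrients are plentiful. In cytotoxic T cells the lytic granules are lysosomes adapted for secretion, and autophagy is known for its part in the survival of activated and memory CD8+ T cells.

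Libraries held 5383380 to 5809517 counts with butyrate and 5415021 to 6244350 counts in control. Levels are given in CPM (each gene's part of its library's counts on the usual CPM scale, adjusted by TMM) and each change as the log2 fold change of butyrate over control, with a gene called higher or lower at a Benjamini-Hochberg adjusted p under 0.05 in edgeR's quasi-likelihood test over all 11740 genes that passed the filter. T cell markers were high throughout. Cd8a averaged 436 ± 55.1 CPM with butyrate and 454 ± 62.1 CPM in control (SD, n = 3 each, edgeR adjusted p = 0.741). Of 7 T cell markers, Cd3e and Lck were lower and 0 were higher. With the replicate number as a block, Cd3g was also lower (-0.86 on the log2 scale, edgeR adjusted p = 0.000866, against 0.0575 without it) and Trac was higher (0.30, adjusted p = 0.0287, against 0.191). The 20 markers of macrophages and dendritic cells summed to 159 to 170 CPM in butyrate libraries and 47.3 to 107 CPM in control libraries. Of the 8 tested, 4 rose (Itgam, H2-Ab1, H2-Aa and Cd74) and 0 fell, and the 12 others had too few counts for the test. Lyz2 stood at 10.2 to 37.7 CPM with butyrate and 8.35 to 45.6 CPM in control, and Cd68 at 7.58 to 8.6 CPM with butyrate and 2.78 to 6.81 CPM in control, where its groups did not overlap but the call was missed (edgeR adjusted p = 0.0875, called higher without control replicate 3). Adgre1 was at 0 to 0.185 CPM with butyrate and 0 to 0.324 CPM in control, C1qa at 0 to 0.924 and 0 to 0.185 CPM, and Csf1r at 0.185 to 1.38 and 0.185 to 1.95 CPM, while Siglech was at 0 in all 6 libraries. In the summed markers the butyrate libraries also lay above the control libraries for B and plasma cells (41.4 to 50.1 CPM with butyrate and 29.2 to 31.1 CPM in control), granulocytes and mast cells (27.3 to 58.8 and 11.1 to 24.8 CPM), NK cells (2020 to 2780 and 433 to 1440 CPM, of genes that include Gzma and Eomes, which CD8+ T cells use too) and erythroid cells and platelets (6.88 to 38.8 and 1.11 to 4.06 CPM). Most of the NK sum was Gzma, at a mean of 2320 CPM with butyrate and 820 CPM in control. Of the 4 NK markers tested, Gzma, Klrb1c and Klre1 rose. Eomes fell, with 54.6 CPM with butyrate and 83.2 CPM in control (edgeR adjusted p = 0.00491). The untested Ncr1 was at 0 to 0.185 CPM in both groups. The part of these other cell types in the results was not tested. In such bulk samples, fewer cells of a type and less RNA per cell cannot be told apart.

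Promoter sequences from RefSeq (GRCm38.p6, 250 bases before to 50 after each start) are shown for 5 of the genes because they carry the E-box CACGTG that the TFEB family binds, while the genes themselves went different ways with butyrate. Ctsl had the largest rise of the 42 genes tested, Atp6v1a rose, Ctsd did not pass the test, and Ctsa and Mcoln1 fell. The calls of Ctsa and Mcoln1 were lost with DESeq2 and when some single libraries were left out. Each promoter is written 5′ to 3′ on the strand of its gene, with each CACGTG in capitals.
Ctsl, chr13:64370471-64370770, minus strand: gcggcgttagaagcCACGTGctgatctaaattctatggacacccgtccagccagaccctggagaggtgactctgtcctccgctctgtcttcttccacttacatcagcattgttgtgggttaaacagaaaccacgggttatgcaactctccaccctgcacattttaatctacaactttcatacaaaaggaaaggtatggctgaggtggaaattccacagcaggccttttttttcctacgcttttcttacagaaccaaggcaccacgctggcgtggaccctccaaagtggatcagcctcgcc
Atp6v1a, chr16:44139210-44139509, minus strand: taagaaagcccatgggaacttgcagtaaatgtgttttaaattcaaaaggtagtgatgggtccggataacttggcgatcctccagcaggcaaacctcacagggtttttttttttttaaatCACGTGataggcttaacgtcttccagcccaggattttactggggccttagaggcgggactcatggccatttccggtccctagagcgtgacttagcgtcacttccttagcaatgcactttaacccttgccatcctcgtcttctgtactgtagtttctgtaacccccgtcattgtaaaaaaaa
Ctsd, chr7:142387778-142388077, minus strand: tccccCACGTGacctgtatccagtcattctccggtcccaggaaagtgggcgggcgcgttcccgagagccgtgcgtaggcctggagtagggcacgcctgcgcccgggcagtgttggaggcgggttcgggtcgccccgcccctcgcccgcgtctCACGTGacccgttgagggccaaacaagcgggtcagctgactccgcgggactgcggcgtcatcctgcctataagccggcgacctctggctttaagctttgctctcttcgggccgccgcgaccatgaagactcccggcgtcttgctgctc
Ctsa, chr2:164833523-164833822, plus strand: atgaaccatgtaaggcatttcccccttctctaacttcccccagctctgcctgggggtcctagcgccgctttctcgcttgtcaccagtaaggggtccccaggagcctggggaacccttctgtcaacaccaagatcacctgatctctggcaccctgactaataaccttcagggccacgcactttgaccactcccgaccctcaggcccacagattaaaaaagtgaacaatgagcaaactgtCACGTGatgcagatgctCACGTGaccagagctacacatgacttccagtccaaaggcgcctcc
Mcoln1, chr8:3500269-3500568, plus strand: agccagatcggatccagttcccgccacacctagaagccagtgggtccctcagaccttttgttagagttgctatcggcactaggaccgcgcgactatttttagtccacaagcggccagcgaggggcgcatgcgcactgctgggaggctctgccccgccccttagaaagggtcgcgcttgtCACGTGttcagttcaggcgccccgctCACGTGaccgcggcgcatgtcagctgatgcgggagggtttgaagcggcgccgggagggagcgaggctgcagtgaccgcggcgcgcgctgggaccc

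In these windows the single E-box of Ctsl had its first base at -236, where the start base is 0, and that of Atp6v1a lay at -131. Both windows are for starts inside the RefSeq spans of their genes. The E-box of Ctsl lies near the 5′ end of its span (chr13:64361890-64370772, minus strand). Ctsd had E-boxes at -245 and -98, Mcoln1 at -71 and -45, and the downstream start of Ctsa at -12 and 5. RefSeq windows matched 35 of the 43 genes (not Ctsb, Ctsh, Atp6v1b2, Atp6v1h, Becn1, Atg12, Atg16l1 and Map1lc3a), some with more than 1 start. Of these 35 genes, 12 held CACGTG (a palindrome, so both strands are read at once) in at least 1 window, or 34.3%. The share was 12% over the 9123 tested genes with a window and 8.09% over all 27025 genes of the sequence table. The longer form with T before and A after the E-box, which overlaps the shorter one, stood in 6 of the 35 genes (17.1%), against 2.39% of the tested genes. The windows had a median GC content of 59.2% for these genes and 60.7% for tested genes. The E-box was in 4 of 8 genes that rose, 2 of 5 that fell (Ctsa and Mcoln1) and 6 of 21 that were not called. No test was made of these counts, since the genes were picked for their pathway.

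With butyrate, 10 of the 42 genes tested rose and 5 fell, so that 35.7% were called in either direction, against 45.9% of all genes tested. The genes that rose were the proteases Ctsb, Ctsl and Ctsz, the glycosidases Gaa and Glb1, the V-ATPase subunits Atp6v0a1 and Atp6v1a, and the autophagy genes Wipi1, Map1lc3a and Sqstm1. The genes that fell were Mcoln1, Ctsa, Gusb, Ulk2 and Atg9a. Over all genes tested, 23.5% were called higher and 22.5% lower (2756 and 2637 genes, or 3338 and 2067 with upper quartile scaling), so the share of rises among the 42 (23.8%) was near that of all genes, and the share of falls (11.9%) was lower. The median log2 fold change of the 42 genes was 0.05, against 0.003 for all genes tested. Rises of at least 2-fold were called for Ctsl, Ctsz, Wipi1 and Map1lc3a, and such falls for 0 of the 42 genes (10.6% and 3.33% of all genes tested). Atp6v0a1, whose log2 fold change rounds to 1.00, lay just under 2-fold before rounding. Of 19 lysosomal genes tested, 7 rose and 3 fell, and of 20 autophagy genes 3 rose and 2 fell. The groups did not overlap for 11 of the 42 genes with butyrate above control and for 9 with butyrate below, while over all genes tested these shares were 28.9% and 28.2%. The count of falls was 3 without butyrate replicate 3 or without control replicate 1.

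**Figure D1:**
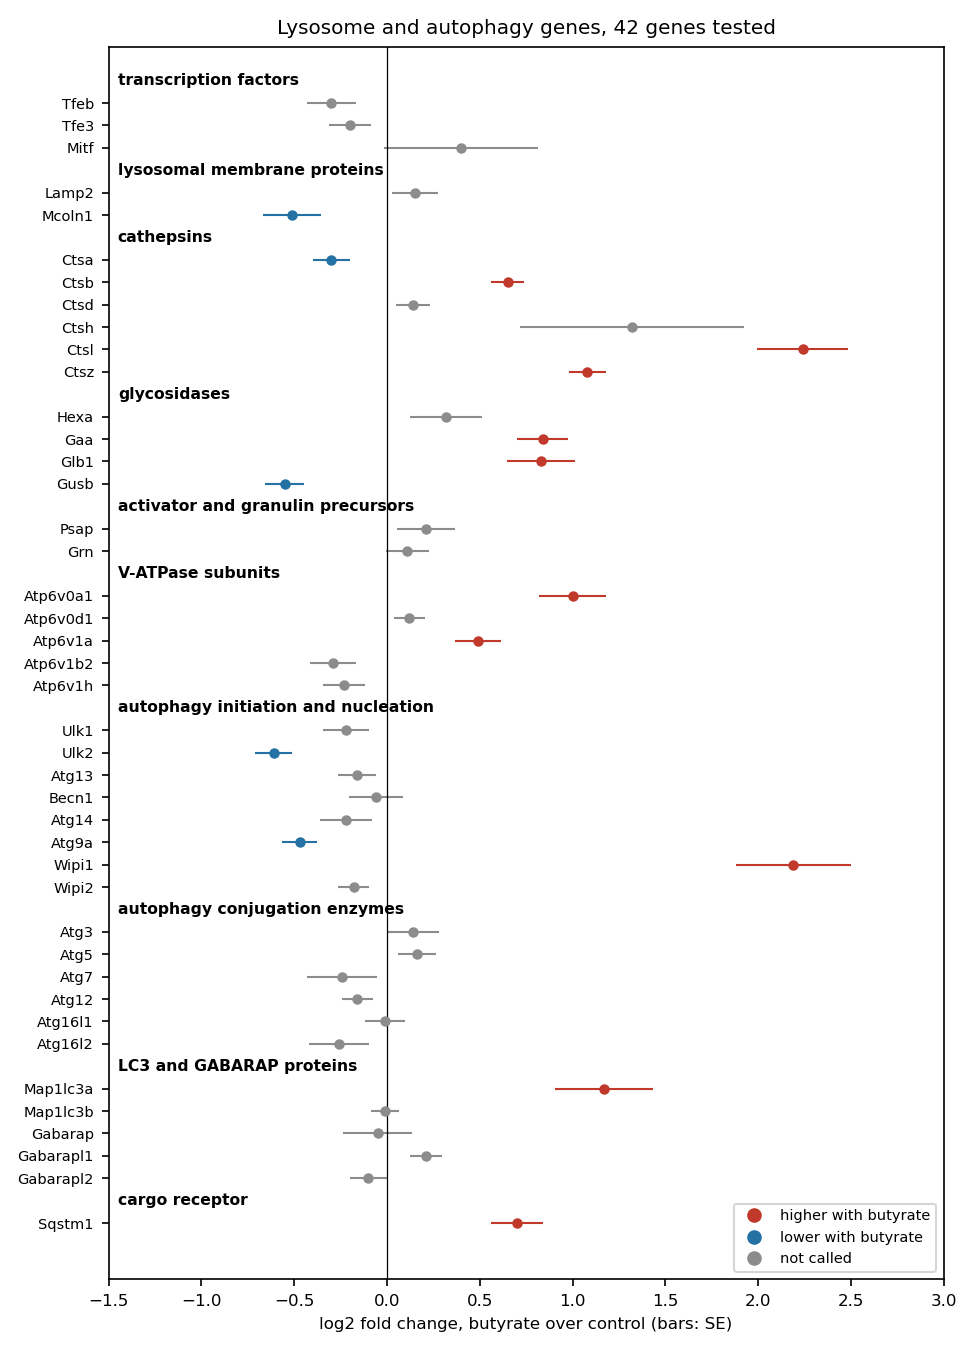
Log2 fold change of butyrate over control (x axis) for the 42 genes tested, in blocks by role, with bars for the SE of edgeR's fit and colours for the call. The rises of Ctsl (2.24) and Wipi1 (2.19) stand far to the right, while no fall passes -0.61. Wipi1 passed the filter through its butyrate libraries alone.

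None of the 3 transcription factors passed the test. Tfeb (chr17:47737037-47792416), a main activator of lysosomal genes, had 21.1, 27.7 and 21.4 CPM with butyrate and 30.6, 28.6 and 27.6 CPM in control, or -0.30 on the log2 scale (SE 0.133, edgeR adjusted p = 0.0919). A single butyrate library lay within the control range, and without butyrate replicate 2 Tfeb was called lower (-0.44, adjusted p = 0.0239). Tfe3 (chrX:7762530-7775202), which acts alongside Tfeb, had 41.1, 42.6 and 43.2 CPM with butyrate and 52.0, 52.7 and 41.0 CPM in control (log2 fold change -0.20, SE 0.114, edgeR adjusted p = 0.187). Control replicate 3 was at the butyrate level for Tfe3, and without it Tfe3 was called lower (-0.30, adjusted p = 0.0469). Mitf, better known from pigment cells and osteoclasts, stood at only 2.03, 1.55 and 2.22 CPM with butyrate and 1.08, 0.927 and 2.27 CPM in control (edgeR adjusted p = 0.455). Per kb of exon, Tfe3 made up 58.7% ± 3.24 of the summed level of the 3 genes with butyrate and 57.0% ± 3.01 in control (SD, n = 3 each), and Mitf 1.83% ± 0.416 and 1.18% ± 0.725.

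Among the cathepsins, 3 of 6 rose and 1 fell, and the largest change was in Ctsl, which encodes a cysteine endopeptidase (chr13:64361890-64370772). Ctsl had 11.1, 13.1 and 15 CPM with butyrate and 1.98, 2.60 and 3.57 CPM in control, or 2.24 on the log2 scale (SE 0.246, edgeR adjusted p = 0.000193). All 3 butyrate libraries stood above all 3 control libraries, but the level was low, at 6.62 CPM per kb of exon with butyrate against 1.38 in control. Ctsz, which encodes a carboxypeptidase (chr2:174427494-174439039), had 149, 123 and 149 CPM with butyrate and 69.8, 67.3 and 61.8 CPM in control (log2 fold change 1.08, SE 0.101, adjusted p = 9.81e-05). Ctsb, a cysteine protease gene (chr14:63122462-63145923), had 316, 273 and 270 CPM with butyrate and 182, 174 and 192 CPM in control (log2 fold change 0.65, SE 0.0909, adjusted p = 0.00061). The groups were clearly apart for both. The gene spans of Ctsz and Ctsb overlap those of Nelfcd and Fdft1 in RefSeq, and the sources used here do not give the strand setting of the counts. These neighbours were lower with butyrate, by log2 fold changes of -0.45 for Nelfcd and -0.46 for Fdft1.

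The most abundant of the 43 genes did not pass the test. Ctsd, which encodes the main aspartic protease of lysosomes, had 824, 846 and 932 CPM with butyrate and 765, 740 and 852 CPM in control (edgeR adjusted p = 0.24), so the groups overlapped. It led the list in both groups per length, at 408 CPM per kb with butyrate and 369 in control. Ctsh, an aminopeptidase gene, was at 2.8 ± 1.62 CPM with butyrate and 1.07 ± 0.901 CPM in control (SD, n = 3 each, adjusted p = 0.104). It was called higher with the replicate number as a block (adjusted p = 0.00992) and without control replicate 3 (log2 fold change 2.30 instead of 1.32, adjusted p = 0.0273). Ctsa, a serine carboxypeptidase that also protects the enzymes beta-galactosidase and neuraminidase (chr2:164832872-164841032), had 73.8, 64.6 and 66.0 CPM with butyrate and 91.4, 75.9 and 84.0 CPM in control (log2 fold change -0.30, SE 0.0987, adjusted p = 0.0347). The gap between the groups was narrow, and the call of Ctsa was lost without butyrate replicate 2 (adjusted p = 0.105) or 3 (0.087) and without control replicate 1 (0.118) or 3 (0.0824).

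The glycosidase genes also went both ways. Gaa, whose product breaks down glycogen in lysosomes (chr11:119267963-119285458), had 56.0, 42.8 and 47.7 CPM with butyrate and 31.3, 26.3 and 24.3 CPM in control (log2 fold change 0.84, SE 0.137, edgeR adjusted p = 0.00132). Glb1, the beta-galactosidase gene (chr9:114401078-114474379), had 81.2, 46.6 and 59.3 CPM with butyrate and 34.2, 33.6 and 37.5 CPM in control (0.83, SE 0.184, adjusted p = 0.00612). For both genes the lowest butyrate library lay above the highest control library, and Glb1 spread most among the butyrate libraries. Glb1 shares its span with Tmppe, which averaged 116 CPM with butyrate and 103 CPM in control and was not called (adjusted p = 0.152). Gusb, the beta-glucuronidase gene (chr5:129989011-130003049), had 53.1, 47.3 and 50.8 CPM with butyrate and 74.0, 81.6 and 65.2 CPM in control, and thus fell (log2 fold change -0.55, SE 0.105, adjusted p = 0.00293). Hexa, for the alpha subunit of beta-hexosaminidase A, stood at 15.7 ± 3.64 CPM with butyrate and 12.5 ± 1.16 CPM in control (adjusted p = 0.206, called higher without butyrate replicate 2 at 0.0398).

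Of the remaining lysosomal proteins, Mcoln1 passed the test. It encodes the calcium channel TRPML1 (chr8:3500519-3515232) and had 12.9, 11.5 and 9.42 CPM with butyrate and 16.4, 17.1 and 14.9 CPM in control (log2 fold change -0.51, SE 0.157, edgeR adjusted p = 0.0262). The groups did not overlap, yet the call was lost without butyrate replicate 2 (adjusted p = 0.0615) or 3 (0.0794) and without control replicate 1 (0.0621) or 2 (0.0809). Lamp2, a major glycoprotein of the lysosomal membrane, was at 75.2 ± 11.1 CPM with butyrate and 67.8 ± 6.2 CPM in control (adjusted p = 0.353). The tetraspanin gene Cd63, a marker of late endosomes and lytic granules, did not pass the filter on low counts. It had 28 counts over the butyrate libraries and 2 over the control libraries, which is 14.4 times as many per read sequenced (3.63 to 125 as the 95% interval of counting error alone, computed exactly). The precursor genes Psap, whose product yields the saposins that present lipids to hydrolases, and Grn, for progranulin, were not called (adjusted p = 0.307 and 0.457). Psap was second to Ctsd in level per length, at 157 CPM per kb with butyrate and 136 in control.

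**Figure D2:**
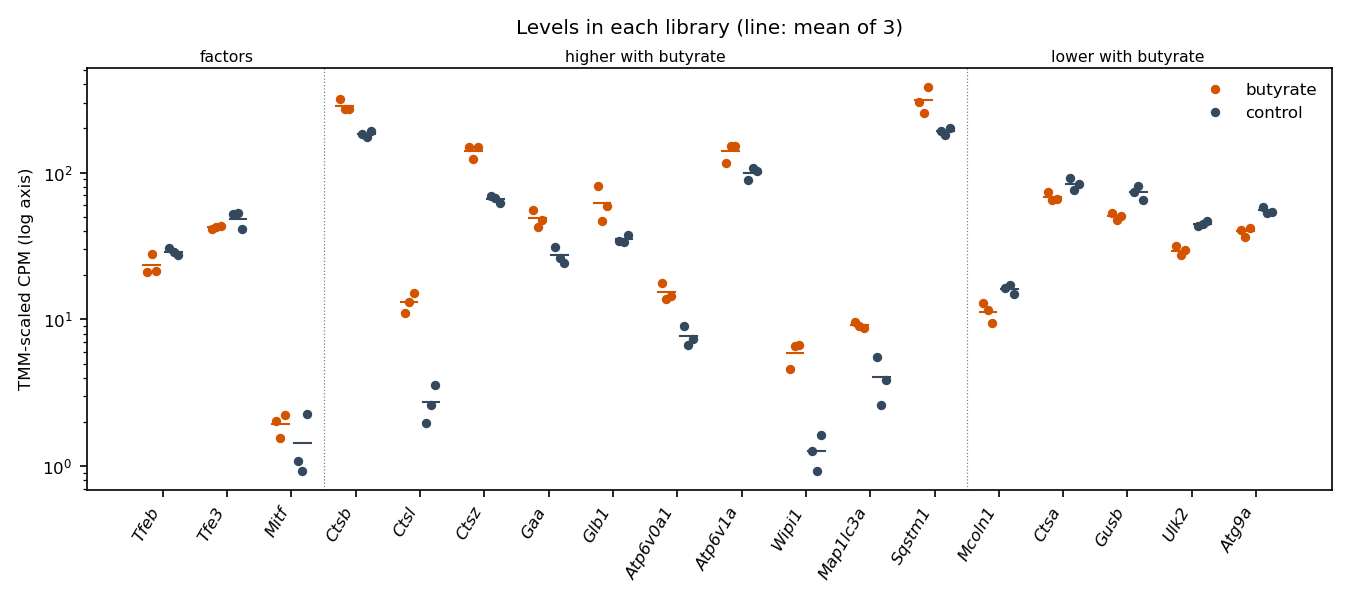
TMM-scaled CPM (log axis) in each of the 6 libraries for the 3 transcription factors, the 10 genes called higher and the 5 called lower, with butyrate libraries left of control libraries and a line at each mean. The groups part by the widest gap in Ctsl and Wipi1 and overlap in Tfeb, Tfe3 and Mitf. Wipi1 passed the filter through its butyrate libraries alone.

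V-ATPase subunit genes rose in 2 of 5 cases. Atp6v0a1, for an isoform of the large membrane subunit (chr11:101009422-101063719), had 17.8, 13.8 and 14.4 CPM with butyrate and 9, 6.68 and 7.30 CPM in control (log2 fold change 1.00, SE 0.181, edgeR adjusted p = 0.00224). Atp6v1a, for the catalytic subunit (chr16:44085402-44139702), had 117, 151 and 153 CPM with butyrate and 88.6, 108 and 103 CPM in control (0.49, SE 0.123, adjusted p = 0.0112). Both were separated between the groups. Atp6v0d1, Atp6v1b2 and Atp6v1h, for subunits d, B and H, had log2 fold changes of 0.12, -0.29 and -0.23 and did not pass the test. The groups overlapped for Atp6v0d1 but not for Atp6v1b2 and Atp6v1h, where butyrate lay below control. Atp6v1b2, for the partner of the catalytic subunit, was called lower with the replicate block (-0.28, adjusted p = 0.0294). The log2 fold changes of the 5 subunit genes thus ran from -0.29 to 1.00, and whether they differ from each other was not tested.

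Among the genes that start autophagosome formation, Wipi1 rose while Ulk2 and Atg9a fell. Wipi1 encodes a protein that binds the lipid phosphatidylinositol 3-phosphate on forming membranes (chr11:109573521-109611389), and it had 4.62, 6.53 and 6.65 CPM with butyrate and 1.26, 0.927 and 1.62 CPM in control (log2 fold change 2.19, SE 0.309, edgeR adjusted p = 0.000622). Ulk2, a kinase gene of the initiation complex (chr11:61775598-61855334), had 31.4, 27.3 and 29.6 CPM with butyrate and 43, 44.5 and 46.9 CPM in control (-0.61, SE 0.0982, adjusted p = 0.00125). Atg9a, for the membrane protein of the vesicles that seed the autophagosome (chr1:75180861-75192010), had 40.9, 36.6 and 41.9 CPM with butyrate and 58.5, 53.2 and 54.2 CPM in control (-0.47, SE 0.0943, adjusted p = 0.00351). In all 3 genes the groups stood apart. Wipi1, with 7, 5 and 10 counts in control libraries, passed the filter through its butyrate libraries alone. Its test and its place among the largest changes therefore rest on a gene kept for its butyrate level. The other 5 genes of this role (Ulk1, Atg13, Becn1, Atg14 and Wipi2) were not called, with log2 fold changes of -0.22 to -0.06 and adjusted p of 0.111 to 0.751. Becn1, the core subunit of the lipid kinase complex, was the most abundant of them at 130 ± 12.6 CPM with butyrate and 136 ± 28.3 CPM in control. For Wipi2 the groups did not overlap (62.1 to 66.4 CPM with butyrate and 68.9 to 77.6 CPM in control).

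The 6 genes that attach LC3 and GABARAP to lipid were not called in any direction. They are Atg7 (the activating enzyme), Atg3 (the conjugating enzyme), and Atg12, Atg5, Atg16l1 and Atg16l2 of the complex that directs the reaction. Their log2 fold changes ran from -0.26 to 0.16 and their edgeR adjusted p from 0.157 to 0.964. Atg12, the most abundant in CPM, averaged 74.2 ± 2.99 CPM with butyrate and 82.7 ± 4.83 CPM in control (SD, n = 3 each), and its groups did not overlap (adjusted p = 0.157).

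Of the 5 LC3 and GABARAP genes, 1 rose. Map1lc3a (chr2:155276364-155278073) had 9.62, 8.94 and 8.69 CPM with butyrate and 5.58, 2.60 and 3.89 CPM in control (log2 fold change 1.17, SE 0.265, edgeR adjusted p = 0.00677). The close relative Map1lc3b, the usual marker of autophagosomes, had 122, 126 and 123 CPM with butyrate and 117, 126 and 131 CPM in control (-0.01, SE 0.0775, adjusted p = 0.895). The control values of Map1lc3b lay on both sides of the butyrate values. Gabarap, Gabarapl1 and Gabarapl2 were not called (adjusted p of 0.845, 0.0791 and 0.444), and Gabarapl1, whose groups did not overlap, was called higher with the replicate block (0.20, adjusted p = 0.0348) and with upper quartile scaling (0.29, 0.0234). How reads shared among near-identical copies of these genes were counted is not stated in the labels, and the span of Map1lc3b overlaps that of Zcchc14, which rose with butyrate (27.9 CPM, against 0.57 CPM in control, edgeR adjusted p = 3.22e-05). Sqstm1, for the cargo receptor p62 that links ubiquitin to LC3 (chr11:50200152-50210820), had 302, 253 and 383 CPM with butyrate and 193, 180 and 202 CPM in control, or 0.70 on the log2 scale (SE 0.141, adjusted p = 0.00371). Its rank in level per length was 4 in both groups, at 111 CPM per kb with butyrate and 68.0 in control.

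**Figure D3:**
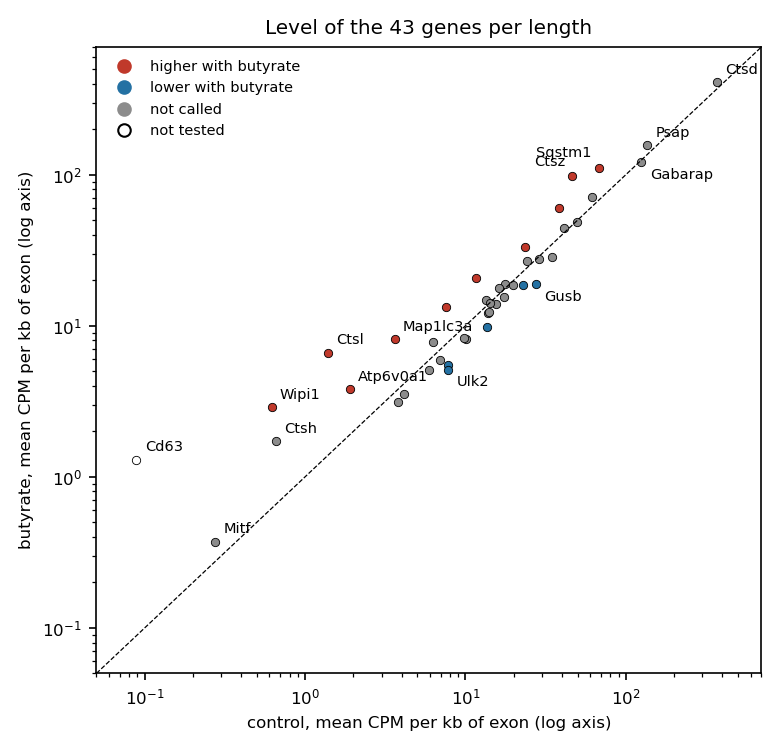
Mean level of each of the 43 genes in CPM per kb of exon, with butyrate on the y axis and control on the x axis (both log axes), and the line of equal levels dashed. Ctsd and Psap lie at the top near the line, while Ctsl, Wipi1 and the untested Cd63 lie above it at the low end.

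Among related genes, the rarer genes Wipi1 and Map1lc3a had a larger share in every butyrate library than in any control library, though 3 libraries a group cannot pass an exact test. The families were chosen with results of these data known. Wipi1 made up 14.9%, 20.7% and 21.3% of the level per kb of Wipi1 and Wipi2 in butyrate libraries and 3.94%, 3.20% and 5.60% in control libraries. Map1lc3a made up 15.2%, 13.9% and 13.8% of the LC3 level per kb with butyrate and 9.80%, 4.47% and 6.34% in control. Neither share overlapped between the groups. The control shares of Wipi1 rest on 7, 5 and 10 counts, and the gene passed the filter through its butyrate libraries alone. With the other WIPI genes Wdr45 and Wdr45b counted too, Wipi1 made up 6.49% ± 1.29 of the level of all 4 genes with butyrate and 1.15% ± 0.307 in control, and Wdr45b was the most abundant of the 4 in every library. Ulk2 made up 46.4% ± 1.52 of the level of Ulk1 and Ulk2 with butyrate and 53.1% ± 2.84 in control (SD, n = 3 each), so the order of that pair was turned in the means. Atg16l2 held 18.3% ± 2.09 and 20.9% ± 2.12 of its pair. For Wipi1, Map1lc3a and Ulk2 a two-sided exact permutation test gave p = 0.1, which 3 libraries against 3 cannot go below, and adjusted over the 16 shares in 7 families by Benjamini-Hochberg it was 0.2. For Atg16l2 the exact p was 0.2.

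**Figure D4:**
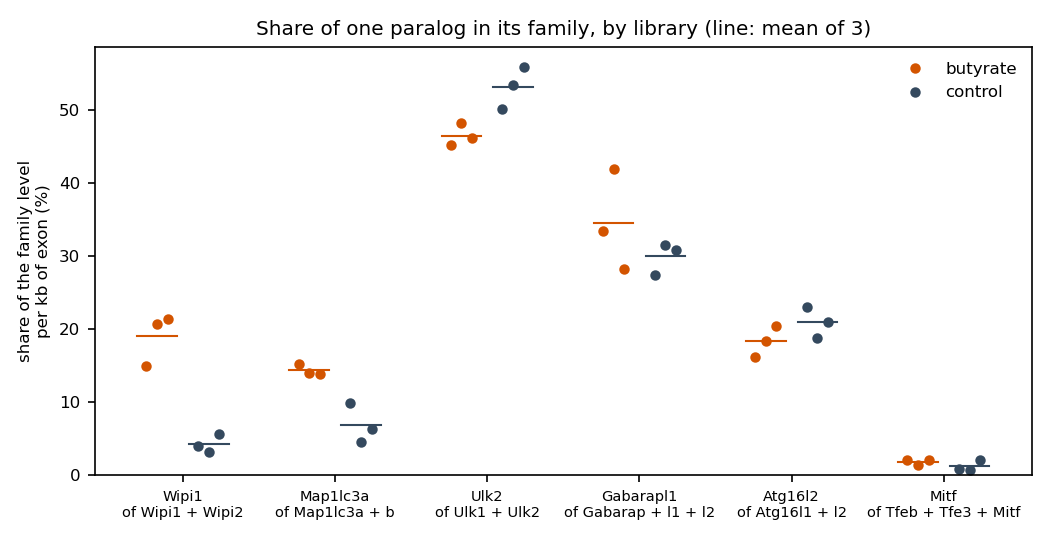
Share (in percent, per kb of exon) of 1 gene in the summed level of its family for 6 families, with 1 point per library, butyrate left of control, and a line at each mean. The shares of Wipi1 and Map1lc3a are higher and that of Ulk2 lower with butyrate, with no overlap, while those of Gabarapl1, Atg16l2 and Mitf overlap.

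Another 177 genes of these systems, listed whatever they showed, were read in the same fit. Of the 165 tested, 30 rose (18.2%) and 44 fell (26.7%), against 23.5% and 22.5% of all genes tested. In either direction 44.8% were called, close to the 45.9% of all genes. With upper quartile scaling, which moved the median of all genes tested to 0.085, 40 rose and 29 fell. With the replicate number as a block, 35 rose and 51 fell. The lysosomal hydrolases and activators rose in 11 of 41 cases (26.8%) and fell in 9 (22%), shares near those of all genes, with a median log2 fold change of 0.11. In the block fit 14 of these 41 rose and 13 fell. Lgmn, the gene for legumain, a protease that processes cathepsins, averaged 14.1 ± 2.34 CPM with butyrate and 0.715 ± 0.379 CPM in control (SD, n = 3 each, log2 fold change 4.28, SE 0.329, edgeR adjusted p = 4.78e-05). The control level of Lgmn rests on 12 counts, and the gene passed the filter through its butyrate libraries alone. Ppt1, a palmitoyl-protein thioesterase gene, averaged 243 ± 22.7 CPM with butyrate and 110 ± 2.08 CPM in control (1.14, adjusted p = 5.06e-05), and its span overlaps that of the far more abundant Cap1. Ctso, a cysteine protease gene, and Smpd1, the acid sphingomyelinase gene, fell by 1.13 and 0.64 on the log2 scale.

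Genes of other lysosomal membrane and sorting proteins rose in 5 of 31 cases (16.1%) and fell in 7 (22.6%, against 22.5% of all genes tested), with 3 rises without control replicate 2. Igf2r, the receptor that sorts enzymes tagged with mannose 6-phosphate to lysosomes, averaged 293 ± 39.9 CPM with butyrate and 141 ± 18.6 CPM in control (SD, n = 3 each, log2 fold change 1.05, edgeR adjusted p = 0.00035). The overlapping antisense RNA gene Airn also rose, with a mean of 12.5 CPM with butyrate and 3.59 CPM in control, and without a known strand setting reads of the pair cannot be told apart. Laptm4b, for a small membrane protein of late endosomes and lysosomes, rose by a log2 fold change of 2.09. It had 9, 7 and 6 counts in control libraries and passed the filter through its butyrate libraries alone. Scarb2, for LIMP-2, which carries glucocerebrosidase to lysosomes, and the transporter gene Abca2 fell by 0.72 and 0.52 on the log2 scale. Other V-ATPase subunit and accessory genes fell in 5 of 14 cases (35.7%) and rose in 1 (7.14%), but the falls rest on the setting. They numbered 1 with upper quartile scaling (3 rises), 2 with DESeq2 and 1 to 3 when any single library was left out. The gene that rose was Atp6v0d2, an isoform of subunit d known from osteoclasts and macrophages, with 116 counts over the butyrate and 3 over the control libraries, 39.8 times as many per read sequenced (95% counting interval 13.3 to 196). Even so, Atp6v0d2 made up 5.82% ± 2.03 of the subunit d level per kb with butyrate and 0.181% ± 0.18 in control, the remainder being Atp6v0d1. Atp6v0d2 also passed the filter through its butyrate libraries alone. Atp6ap1 and Atp6ap2, for accessory proteins of the pump, fell by 0.44 and 0.38, and the call of Atp6ap2 was lost with upper quartile scaling and when any of 4 single libraries was left out.

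Other autophagy genes rose in 5 of 39 cases (12.8%) and fell in 13 (33.3%), in all 46.2% against 45.9% of all genes tested. With upper quartile scaling 9 rose and 6 fell, with DESeq2 4 rose and 8 fell, and without butyrate replicate 2 there were 5 rises and 7 falls. Rb1cc1, for the scaffold FIP200 on which the ULK kinases act, averaged 38.7 ± 3.72 CPM with butyrate and 65.7 ± 4.39 CPM in control (SD, n = 3 each, log2 fold change -0.76, edgeR adjusted p = 0.000497). Wdr45, for WIPI4, a relative of Wipi1, fell by 1.02 on the log2 scale. Trp53inp2, for an autophagy and transcription cofactor, averaged 44.0 ± 14.5 CPM with butyrate and 11.8 ± 3.45 CPM in control (1.88, adjusted p = 0.000682), and Optn, for the cargo receptor optineurin, rose by 1.25. The list of mTORC1 and lysosomal nutrient sensing genes rose in 8 of 40 cases (20%) and fell in 10 (25%), with 6 falls without control replicate 3. In the replicate block fit 12 of the 40 fell. Castor1, for a cytosolic arginine sensor that restrains mTORC1, averaged 59.7 ± 13.4 CPM with butyrate and 9.44 ± 1.81 CPM in control (2.66, SE 0.199, adjusted p = 4.49e-05). Ddit4, for the mTORC1 inhibitor REDD1, averaged 545 ± 50.9 CPM with butyrate and 325 ± 8.36 CPM in control (0.75, adjusted p = 0.000317). Flcn, for folliculin, through which mTORC1 acts on TFEB and TFE3, averaged 25.1 ± 1.41 CPM with butyrate and 43.5 ± 2.32 CPM in control (-0.79, adjusted p = 0.000369). Sesn1, for a sestrin, fell by 1.03.

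**Figure D5:**
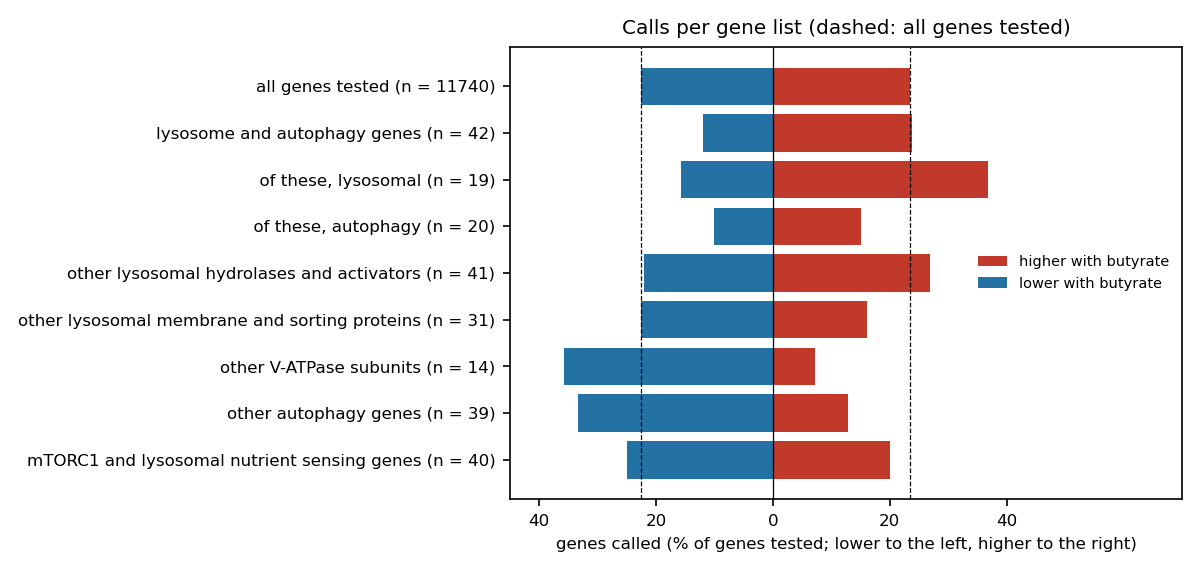
Percent of tested genes called higher (right) or lower (left) with butyrate, for all genes, the 42 genes described first, their lysosomal and autophagy parts, and 5 lists of further genes, with the shares over all genes dashed. The bar of rises is longest for the lysosomal part (36.8%), and those of falls for other V-ATPase subunits (35.7%) and other autophagy genes (33.3%), both of which shrink with upper quartile scaling to 1 of 14 and 6 of 39 genes.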

How the data were processed

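The values are raw counts of reads by gene number in 6 libraries, deposited by the authors as 1 table. Per the submitters' processing notes, the tools included TopHat, featureCounts of the Subread package, Picard, CASAVA and edgeR, with the build mm10. The sources used here do not give their versions, roles, strand setting or treatment of shared reads. Genes were named from RefSeq (GRCm38.p6, the assembly behind mm10) for 25275 numbers and GENCODE for 18. The 1886 unnamed numbers (0.961% to 1.20% of a library) stayed in the tests. Coordinates are 1-based RefSeq spans, and exon lengths are unions of GENCODE exons paired with RefSeq transcripts.

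The 3 butyrate and 3 control libraries entered a group-only fit with the quasi-likelihood F test of edgeR (edgeR 4.0.16, R 4.3.3) with filterByExpr, TMM and Benjamini-Hochberg adjustment, checked on simulated data. The SE is the log2 fold change over the square root of F. A count of 3, the limit that 0 counts allow, is 0.480 to 0.557 CPM. No pair of libraries within a group looked like 1 library deposited again (chi-square of 5.43 to 10.6 for each degree of freedom). Same-numbered libraries deviated together (r of 0.36, 0.20 and 0.35), which meets the rule for reading the numbers as pairs. The reported tests do not use the pairing, and the replicate block is an alternative fit, given beside a result where it changes the call. Shares were compared by exact permutation (scipy 1.17.1). The 43 genes and all lists were chosen with earlier results of these data known. Values in every library are given for genes called at 2-fold or more, the 3 transcription factors and, beyond the rule set, the other called genes. Genes not called are given by range with examples, the most abundant first. From the further lists, up to 2 called genes per direction with the smallest p are named. Alternatives were other scalings and filters, DESeq2 1.42.0, limma 3.58.1 voom, robust edgeR, a replicate block and leaving out each library.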

Additional observations from a re-analysis of the deposited data

How the results depend on the processing

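Of the 15 calls among the 42 genes, 13 had the same direction and stayed called in each of the alternatives that tested them, Wipi1 being filtered out at 5 CPM in 3 libraries. The exceptions were Ctsa, called in 8 of 15 alternatives (adjusted p up to 0.118), and Mcoln1, called in 10 of 15 (up to 0.0809). DESeq2 called 3 of the 42 genes lower, without both, and leaving out single libraries gave 10 to 11 rises and 3 to 5 falls. With the replicate block 12 rose and 6 fell, which added Ctsh, Gabarapl1 and Atp6v1b2, and over all genes 3220 rose and 3095 fell. Beside Cd3g and Trac, the block changed no other call among the 42 genes, the further genes named and the tested T cell and macrophage markers. Upper quartile scaling gave 29 falls among the 165 further genes (44 with TMM) and turned the split over all genes to 3338 rises and 2067 falls, against 2756 and 2637 with TMM. With no filter Cd63 was called higher. The T cell marker Cd3d, not called with all libraries, ran from -0.46 (lower, adjusted p = 0.00436, without butyrate replicate 1) to 0.26 when single libraries were left out. The causes were not tested. Counts were low for Ctsh (46 with butyrate and 19 in control) and Cd63 (28 and 2). They were also low for Mitf (6, 5 and 14 in control libraries) and for Wipi1 in control libraries (7, 5 and 10).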
